A study of Mus musculus with 2 samples.

Results

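The genes described here encode the cytotoxic granule of lymphocytes: the granzymes Gzma, Gzmb, Gzmc, Gzmk and Gzmm, the pore-forming protein perforin (Prf1), the granule proteoglycan serglycin (Srgn), the granule membrane protein Nkg7, and the protease inhibitors Serpinb6b and Serpinb9. They were chosen by name, with earlier results of these data known. All 10 were found once each among the 55246 loci of the deposited table. The RNA came from regulatory T cells (Treg cells), the suppressive CD4 lineage set by the transcription factor Foxp3, taken from the lamina propria of the colon, the tissue layer beneath the gut epithelium, in female mice. One group was wild type (WT) and the other, Exon2KO, carried a Foxp3 gene lacking exon 2 (Foxp3∆2), and the comparison addresses how loss of that exon relates to the Treg transcriptome. Each genotype had 1 library, with no replicate, so the spread between samples is unknown for every value below. Age, strain, the number of mice behind a library and the way the cells were isolated are not given in the sources used here.

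Cytotoxic lymphocytes store perforin and granzymes in secretory granules, bound to serglycin, and release them onto a target cell. Perforin opens the target's membrane, and granzymes, which are serine proteases, then enter and cleave proteins inside it. Clade B serpins such as Serpinb9 inhibit granzyme B inside the cells that make it. Treg cells can express granzyme B and perforin, and granzyme-dependent killing of other immune cells is one of the ways in which Treg cells are known to suppress.

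The granzyme genes lie in clusters, and the sequences before the RefSeq starts of 4 of them are shown because the 2 neighbouring pairs, Gzma with Gzmk and Gzmb with Gzmc, each held granzymes of very different level in WT, and Gzma and Gzmk had ratios of opposite sign. Each window, written 5′ to 3′, is the 250 bases before the RefSeq gene start on GRCm38.p6, on the minus strand for all 4 genes, and capitals mark exact matches to the motifs named below. The windows are chr13:113100982-113101231 for Gzma, chr13:113180966-113181215 for Gzmk, chr14:56262335-56262584 for Gzmb and chr14:56234658-56234907 for Gzmc.
Gzma: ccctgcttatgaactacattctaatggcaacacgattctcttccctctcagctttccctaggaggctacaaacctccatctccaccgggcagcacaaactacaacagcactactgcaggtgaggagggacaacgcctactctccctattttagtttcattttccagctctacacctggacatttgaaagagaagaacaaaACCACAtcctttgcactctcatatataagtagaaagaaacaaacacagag
Gzmk: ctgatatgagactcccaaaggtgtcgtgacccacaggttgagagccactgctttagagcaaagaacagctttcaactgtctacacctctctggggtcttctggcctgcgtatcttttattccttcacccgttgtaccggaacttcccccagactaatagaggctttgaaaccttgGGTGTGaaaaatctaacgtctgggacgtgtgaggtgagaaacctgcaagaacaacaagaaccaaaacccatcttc
Gzmb: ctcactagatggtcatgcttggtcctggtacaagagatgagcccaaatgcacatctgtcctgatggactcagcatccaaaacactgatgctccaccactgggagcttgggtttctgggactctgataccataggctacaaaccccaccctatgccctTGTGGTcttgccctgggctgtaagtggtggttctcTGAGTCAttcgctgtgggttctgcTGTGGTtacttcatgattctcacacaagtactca
Gzmc: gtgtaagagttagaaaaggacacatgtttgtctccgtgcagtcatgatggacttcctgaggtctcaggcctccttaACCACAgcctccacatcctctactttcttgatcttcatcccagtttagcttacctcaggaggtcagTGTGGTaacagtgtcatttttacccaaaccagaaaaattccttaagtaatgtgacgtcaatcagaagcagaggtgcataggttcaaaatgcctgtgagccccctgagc
None of these windows overlaps an annotated exon. The Gzmk window lies inside the deposited span of that gene, whose start is placed farther upstream than RefSeq's, so it does not precede the whole locus that was counted. The motifs searched on both strands were TGTTTAC (forkhead), TGTGGT (RUNX), GGTGTG (T-box), TGANTCA (AP-1) and TTCNNNGAA (STAT). Gzma held 1 RUNX match, starting 50 bases before the gene start, Gzmb held 2 RUNX matches and 1 AP-1 match, Gzmc 2 RUNX matches, and Gzmk 1 T-box match. No matches overlapped within these windows. Over all 12 windows that RefSeq lists for the 10 granule genes, 7 held a RUNX match, 5 a T-box match, 2 a STAT match, 1 an AP-1 match and 0 a forkhead match. Unlike the windows shown, windows of Gzmm, Nkg7, Prf1, Serpinb6b and Srgn overlap exons of their own gene, by up to 95 bases. Among all 32851 windows of this length, the shares with a match were 14.0%, 16.3%, 7.02%, 6.75% and 3.17% in the same order. A match describes letters in the window and not a bound site.

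Gene-assigned reads numbered 16281133 for WT and 15412425 for Exon2KO. At these depths a count of 0 allows up to 3 reads, a share of 1.84e-05% and 1.95e-05%, and every interval and limit given covers counting error only. Foxp3 itself went from 6991 reads in the WT library to 20946 in the other, counted over the whole gene, which does not test the deletion of 1 exon. The labelled cell type was checked with 8 genes of Treg and CD4 T cells. All 8 had reads in both libraries, and apart from Foxp3 (log2 ratio 1.56) none passed the test described below. The T cell receptor genes Trac, Cd3d, Cd3g and Cd3e lay at -0.44, -0.25, -0.16 and 0.0032, Il2ra at -0.35, Cd4 at 0.20 and Ctla4 at 0.71, and the 95% interval included 0 for Cd3e alone. Reads of genes that mark other cells were also present, and their source was not tested. The B and plasma cell markers summed to 7772 CPM (reads as a rate of the TMM-scaled total) in WT and 7254 CPM in Exon2KO, nearly all of it Jchain reads. The epithelial markers summed to 66.6 and 233 CPM, of which Epcam held 49.8 and 38.1 CPM.

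The granule genes did not move as a block. After scaling, 4 of the 10 were lower in the Exon2KO library (Gzma, Serpinb6b, Serpinb9 and Prf1), 1 was higher (Gzmk), and 5 did not pass. To pass, a gene needed a 2-fold or larger ratio, with a prior count of 2 added, together with an adjusted p-value below 0.05 from an exact binomial test of its reads. What is compared in this way is a pair of libraries, not the genotypes. Of all 17363 genes tested, 6.81% passed as lower and 7.31% as higher. As the 10 genes were chosen with earlier results of these data known, the contrast with all genes is a description only. The median log2 ratio of the 10 genes, Exon2KO over WT, was -0.64, beside 0.0035 for all genes tested, and 7 of the 10 lay below 0. In bulk RNA, fewer cells expressing a gene and less of its RNA per cell cannot be told apart.

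**Figure D1:**
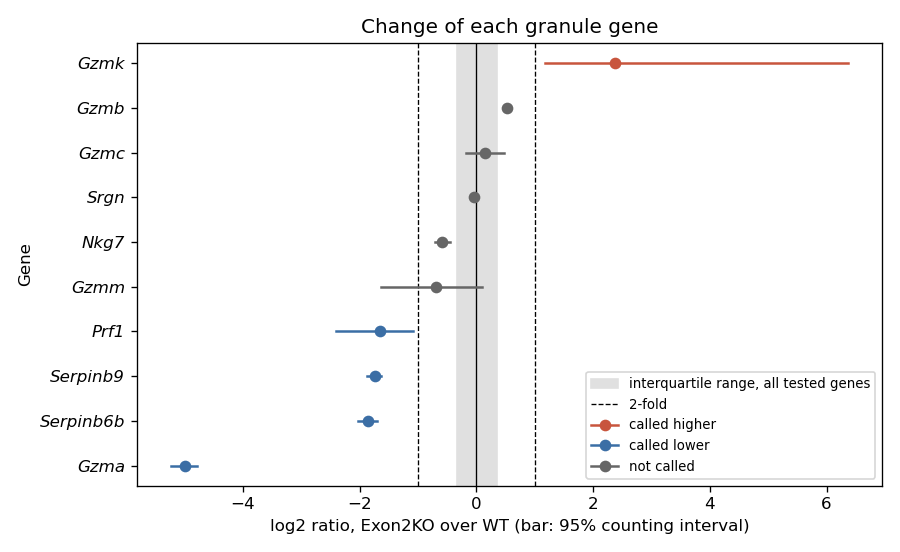
Log2 ratio of Exon2KO over WT for each granule gene, 1 library per group, with the 95% interval from counting error as a bar; the grey band is the interquartile range of all tested genes (-0.33 to 0.35) and dashed lines mark 2-fold. Gzma lies far to the left at -4.98, Serpinb6b, Serpinb9 and Prf1 lie between -1.86 and -1.64, and Gzmk, with few reads, has the widest interval.

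Gzma encodes granzyme A, a tryptase that cuts after basic residues. The gene (ENSMUSG00000023132, chromosome 13, 113093825 to 113100981 on the minus strand, GRCm38) had 5153 reads in WT and 164 in Exon2KO. Per length this was 325 FPKM (a level per unit of gene length and library size) in WT and 10.2 FPKM in Exon2KO. Gzma thus went from position 152 among 22046 protein-coding genes, ordered by FPKM, to position 3522. The level fell 32.0-fold (95% interval 27.4 to 37.6), a log2 ratio of -4.98 (-5.23 to -4.78), and 20 of the genes tested had a lower ratio, which makes Gzma rank 21 from the bottom. No 50-base stretch of its annotated transcripts occurs in a transcript of another gene. Among 8524 other protein-coding genes that reached 100 reads in a library, the 5 nearest to Gzma in log2 ratio, over the 2 libraries, were Fam160a1 (-5.03), Dgat2 (-4.85), Acod1 (-5.18), Eml1 (-4.54) and Tmem158 (-4.41).

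Gzmb encodes granzyme B, the protease that cuts after aspartate and activates caspases in target cells. It lies on chromosome 14, 56258838 to 56262260 (ENSMUSG00000015437, minus strand), and had 43499 reads in WT and 63649 in Exon2KO. In FPKM this was 1921 and 2786, which placed it 15th and 10th among protein-coding genes. The Exon2KO level was 1.44 times that of WT (1.42 to 1.45), a log2 ratio of 0.52 that stayed short of 2-fold. Gzmb and Gzma, both granzymes, therefore had ratios of opposite sign in the same libraries. The FPKM of Gzmb was 5.91 times that of Gzma in WT and 272 times in Exon2KO.

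**Figure D2:**
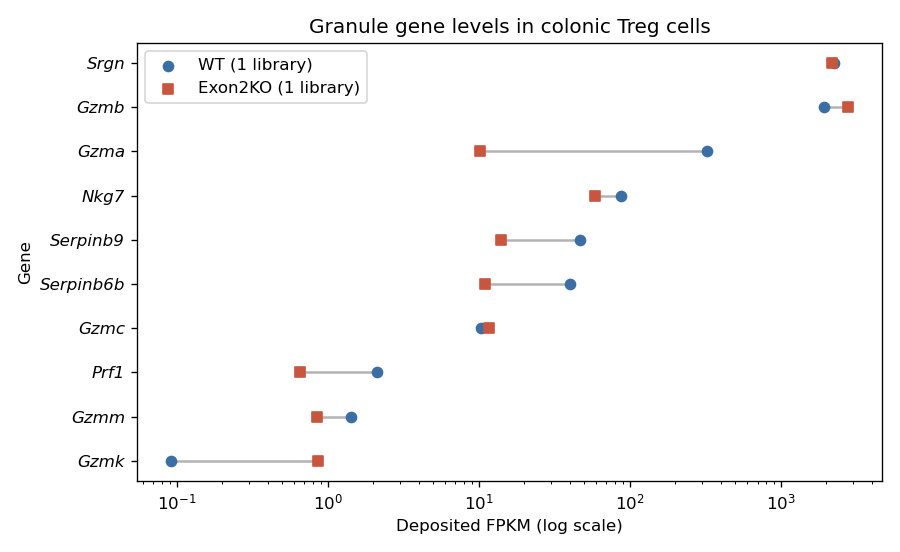
Deposited FPKM of each granule gene on a log scale, with the WT library as circles and the Exon2KO library as squares joined by a line. Srgn and Gzmb sit above 1900 FPKM in both libraries, while Gzma moves from 325 to 10.2 and Prf1 lies at or below 2.13.

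Granzyme C is a serine protease encoded beside granzyme B. Gzmc (ENSMUSG00000079186, chromosome 14, 56231441 to 56234656) was covered by 146 reads in WT and 165 in Exon2KO, or 10.4 and 11.6 FPKM, and the interval of its log2 ratio of 0.15 ran from -0.18 to 0.48. At this depth no difference could be detected. Of its 50-base stretches, 4.14% also occur in Gzmd, Gzme or Gzmg, so a small part of its reads is uncertain. These 3 paralogs had almost no reads of their own: Gzme had 4 in WT and 0 in Exon2KO, and Gzmd and Gzmg had 0 in both libraries, as did Gzmf and Gzmn.

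Granzyme K is a tryptase like granzyme A, and its gene lies 70.6 kb from Gzma on chromosome 13 with no protein-coding gene lying wholly between them. Gzmk (ENSMUSG00000042385, 113171608 to 113225908, minus strand) went the other way from Gzma, from 2 reads in WT to 19 in Exon2KO. Its ratio was 9.33, with a 95% interval from 2.25 to 82.6, and its level stayed low at 0.0913 and 0.86 FPKM. Esm1, on the opposite strand, overlaps the annotated span of Gzmk and had 15 and 9 reads. Whether the counting used strand is not given in the sources used here, so reads in shared sequence cannot be assigned with certainty.

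Granzyme M cuts after methionine and leucine and is best known from natural killer cells. Gzmm (ENSMUSG00000054206, chromosome 10, 79689020 to 79695261) was covered by 33 reads in WT and 20 in Exon2KO, or 1.42 and 0.854 FPKM. The interval of its log2 ratio of -0.69, from -1.63 to 0.09, included 0.

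Summed over 10 granzyme genes, the 5 above with Gzmd, Gzme, Gzmf, Gzmg and Gzmn, granzymes held 0.300% of all reads in WT and 0.415% in Exon2KO. The make-up of this sum differed between the libraries. Of the summed granzyme FPKM, Gzmb made up 85.1% in WT and 99.2% in Exon2KO, and Gzma 14.4% and 0.365%. As shares of granzyme reads, Gzma held 10.6% (95% Wilson interval 10.3 to 10.8) in the WT library and 0.256% (0.22 to 0.298) in the other. All the other granzymes together were below 1% of the FPKM in each library.

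**Figure D3:**
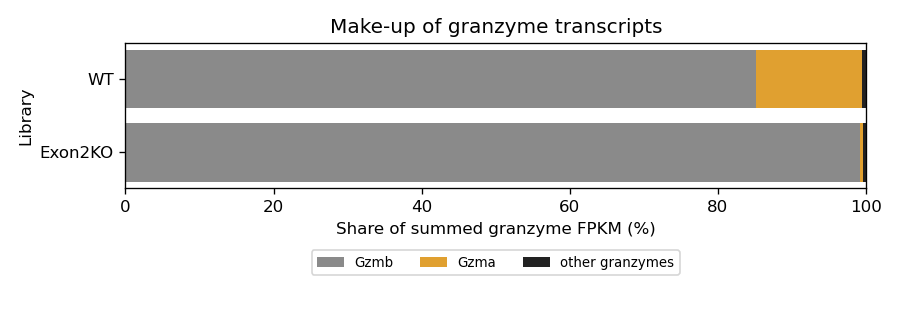
Share of the summed granzyme FPKM in each library (in percent), split into Gzmb, Gzma and all other granzymes. Gzma takes 14.4% of the WT bar and 0.365% of the Exon2KO bar, and Gzmb nearly all of the rest.

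Perforin was scarce in both libraries. Prf1 (ENSMUSG00000037202, chromosome 10, 61297833 to 61304680, plus strand) had 87 reads in WT and 27 in Exon2KO, or 2.13 and 0.657 FPKM. It fell 3.28-fold (2.11 to 5.26), a log2 ratio of -1.64. The FPKM of Gzmb was 900 times that of Prf1 in WT and 4242 times in Exon2KO, while the FPKM of Gzma was 152 times that of Prf1 in WT and 15.6 times in Exon2KO.

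Serglycin, which holds granzymes and perforin in the granule matrix, was, with Gzmb, one of the most abundant of the 10 transcripts per length. Srgn (ENSMUSG00000020077, chromosome 10, 62493833 to 62527451, minus strand) had 77247 reads in WT and 76132 in Exon2KO, or 2230 and 2179 FPKM, and took position 12 among protein-coding genes in both libraries. Its Exon2KO level was 0.967 times that of WT (0.958 to 0.977), and the log2 ratio of -0.05 changed sign to 0.06 when libraries were scaled by total counts. Srgn and Gzmb together made up 91.9% of the reads of the 10 genes in WT and 98.3% in Exon2KO.

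Nkg7, a granule membrane protein required for efficient degranulation, was of intermediate level. The gene (ENSMUSG00000004612, chromosome 7, 43437073 to 43438249) was covered by 1261 reads in WT and 859 in Exon2KO, or 87.5 and 59.1 FPKM. Its level in Exon2KO was 0.669 times that in WT (0.612 to 0.73), a log2 ratio of -0.58 that stayed short of 2-fold.

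The serpin genes moved in the same direction and lie 24.2 kb apart on chromosome 13, both on the plus strand. Serpinb9 (ENSMUSG00000045827, 33003250 to 33017957) encodes an inhibitor of granzyme B that protects the cells carrying it. It had 2565 reads in WT and 779 in Exon2KO, or 46.5 and 14.0 FPKM, and fell 3.35-fold (3.09 to 3.64). Serpinb6b (ENSMUSG00000042842, 32965209 to 32979067), which encodes a related inhibitor, had 1422 and 398 reads, or 39.9 and 11.1 FPKM, and fell 3.64-fold (3.25 to 4.08). Their intervals overlap, so the ratios of these neighbours could not be separated at this depth. The FPKM of Gzmb was 41.3 times that of Serpinb9 in WT and 199 times in Exon2KO, a 4.82-fold shift. The corresponding values against Serpinb6b were 48.2 and 252. Set against Serpinb6b, the FPKM of Gzma went the other way, from 8.15 times in WT to 0.927 times in Exon2KO. Serpinb6b shares 2.92% of its 50-base stretches with Serpinb6a, Serpinb6c or the locus Gm8436, and Serpinb9 shares 0.378% with Serpinb9b.

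The table holds 26 other genes named Serpinb, of which 17 had 0 reads in both libraries and 4 had enough reads to test. Of these 4, 2 rose and 0 fell, beside 7.31% higher and 6.81% lower among all genes tested, and 4 genes are too few to read a direction from. Serpinb1a, an inhibitor of neutrophil-type serine proteases, had 939 reads in WT and 2071 in Exon2KO (log2 ratio 1.11, 1.00 to 1.23), a call lost in edgeR's exact test when the relative spread between samples was taken as 0.2 (adjusted p-value 0.093). Serpinb5, an epithelial serpin, had 0 and 22 reads, at least 7.20-fold higher against 3 reads, and epithelial markers also rose in that library (4 of 5, or 3 of 5 with the same assumed spread, at which Cdh1 lost its call; Krt8 went from 160 to 1604 reads), while Epcam, the fifth, had 782 and 609 reads (-0.39, -0.54 to -0.23). Whether epithelial RNA contributed to Serpinb5 was not tested. Serpinb6a, which shares sequence with Serpinb6b, had 1277 and 1052 reads, at -0.31 (-0.43 to -0.19).

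Of 14 genes for granzyme processing, sorting and granule contents, 1 rose, 1 fell and 12 did not pass, with a median log2 ratio of -0.05. The share that passed, 14.3%, is near the 14.1% of all genes tested. Cathepsin C (Ctsc), the peptidase that activates granzymes by removing their N-terminal dipeptide, had 1188 reads in WT and 1267 in Exon2KO (0.07, -0.05 to 0.18). Its inhibitor cystatin F (Cst7) was at -0.46 (-0.57 to -0.34), and the mannose 6-phosphate receptor M6pr, which sorts granzymes to granules, at -0.65 (-0.72 to -0.58). Ctsw, a cathepsin made mainly by cytotoxic lymphocytes, fell from 1653 to 576 reads (-1.54, -1.69 to -1.41). Cd63, a membrane protein of lysosomes and granules, rose from 88 to 241 reads (1.41, 1.07 to 1.80).

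Among 12 genes of granule transport and exocytosis, 11 had enough reads, 1 fell and 0 rose, a share of 9.09% beside 14.1% of all genes tested, with a median of -0.10. Ap3b1, a subunit of the adaptor that delivers proteins to lysosome-related organelles, fell from 2353 to 1044 reads (-1.20, -1.31 to -1.09), a call likewise lost in edgeR's exact test with that spread (adjusted p-value 0.059). Rab27a, the GTPase that docks granules at the membrane, had 646 and 334 reads and lay at -0.97 (-1.17 to -0.79), just short of 2-fold. Lyst, which controls lysosome size, had 91 and 187 reads and lay at the limit on the other side, at 0.9968, and it passed when the scaling was changed or the prior count lowered to 0.5. The fusion genes Stx11, Stxbp2 and Unc13d had ratios between -0.26 and -0.10.

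Of 4 genes of death ligands, the other route by which T cells kill, 1 fell past 2-fold and 3 did not pass, a share of 25% that rests on 4 genes, beside 14.1% of all genes tested. Tnfsf10, which encodes TRAIL, fell from 108 to 26 reads (-2.00, -2.76 to -1.45). Fasl had 475 and 457 reads, and the interval of its log2 ratio of -0.08 ran from -0.27 to 0.11. Tnf, with 1252 and 1806 reads, was at 0.50 (0.40 to 0.61).

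Of 8 transcription factors tied to cytotoxic differentiation, 6 had enough reads, 1 rose and 0 fell, with a median of 0.45. The share that passed, 16.7%, rests on 1 gene and is near the 14.1% of all genes tested. Zeb2, a transcription factor of terminal effector T cells, rose from 477 to 1725 reads (1.82, 1.68 to 1.98). Prdm1 and Runx3 were at 0.72 (0.57 to 0.86) and 0.61 (0.51 to 0.71), and Tbx21, which encodes T-bet, was at -0.64 (-0.95 to -0.36). Eomes had 3 reads in WT and 0 in Exon2KO, and Zfp683 had 0 in both. Over all 6 lists, 39 genes were tested and 17.9% of them passed, beside 14.1% of all genes tested in either direction.

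**Figure D4:**
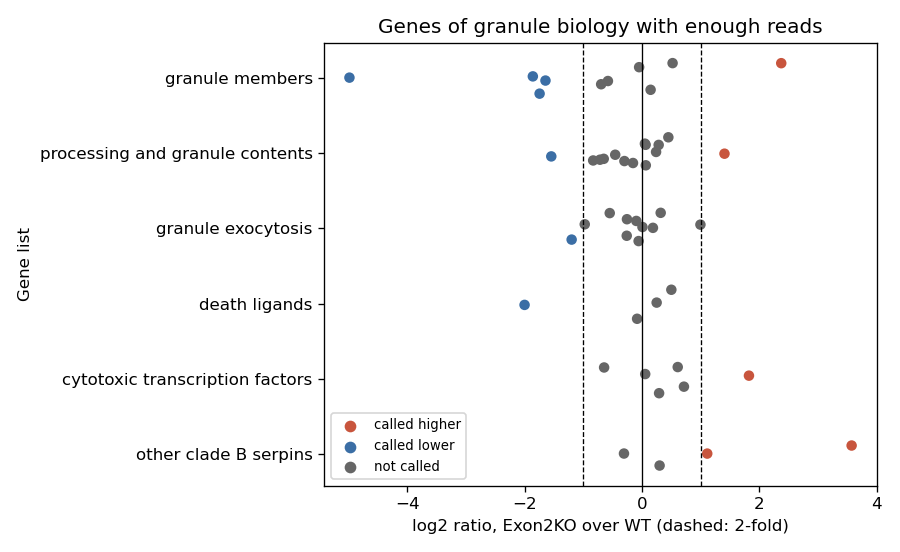
Log2 ratio of Exon2KO over WT for each gene with at least 10 reads, by list, coloured by call; dashed lines mark 2-fold and vertical scatter within a row has no meaning. Of the genes of granule processing and exocytosis, 3 lie past 2-fold, and Gzma lies apart from all genes shown.

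Within 250 kb of a granzyme gene, 27 other genes had enough reads, of which 2 rose and 1 fell, beside 7.31% and 6.81% of all genes tested, with a median log2 ratio of 0.13. Around Gzma and Gzmk, 6 genes had a median of -0.24. Of these, Skiv2l2, Dhx29, Ccno, Plpp1 and Esm1 had log2 ratios of -0.09, 0.29, 0.16, -0.39 and -0.65 and did not pass. Gpx8, whose start lies 54.6 kb from that of Gzma, had 20 reads in WT and 0 in Exon2KO, at least 6.79-fold lower against 3 reads. The genes that rose were Misp (1 and 55 reads) near Gzmm and Atp12a (0 and 10 reads) near Gzmb, both of which are known from epithelium, and the call of Atp12a was lost with the assumed spread of 0.2.

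**Figure D5:**
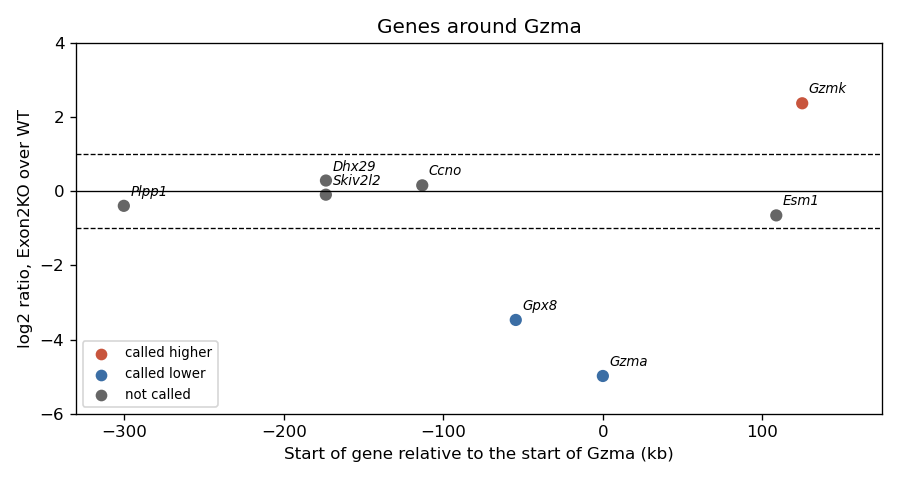
Log2 ratio of Exon2KO over WT for the tested genes within 250 kb of Gzma or Gzmk, against the distance of each gene's deposited start from that of Gzma in kb. Gzma and Gpx8 lie below the 2-fold line, Gzmk above it and the other 5 genes between the lines.

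Other lymphocytes and mast cells also carry granzymes, so their markers are given beside these results. Over all genes tested, 7.31% passed as higher and 6.81% as lower, and each marker list holds few genes. For CD8 T cells, Cd8a had 23 reads in WT and 6 in Exon2KO and Cd8b1 138 and 91, a summed level of 10.3 and 6.07 CPM, and of these Cd8a passed as lower. For natural killer cells and innate lymphocytes, 9 markers summed to 13.9 and 12.7 CPM, and of the 6 with enough reads 1 rose and 0 fell. In that list Ncr1 had 0 and 10 reads, Klrb1c 15 and 18, Klra8 0 in both and Eomes 3 and 0. Mast cell markers summed to 27.5 and 16.7 CPM, of which nearly all came from Hdc (280 and 214 reads) and Kit, which fell from 149 to 53 reads (-1.48, -2.00 to -1.06), while Fcer1a, Mcpt1, Mcpt2, Tpsb2 and Tpsab1 were at 0 in both libraries and Cpa3 and Cma1 had 1 and 0 reads. Of 4 gamma-delta T cell genes, 3 rose, with a sum of 9.18 and 70.2 CPM mainly from Tcrg-C1, whereas Trdc had 14 and 13 reads. The 5 myeloid genes summed to 32.0 and 41.5 CPM, and of the 3 with enough reads 0 passed, with Cd68 at 0.50 (0.22 to 0.80) and Lyz2 at 0.32 (0.11 to 0.54). Of the calls in these lists, those of Cd8a, Ncr1 and Tcrg-C2 were lost when the relative spread was taken as 0.2 (adjusted p-values 0.144, 0.058 and 0.0514, edgeR's exact test). The part of these cells in the granule gene values was not tested.

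The authors' deposited table gives adjusted p-values below 0.05 to 5 of the 10 genes, beside 4.58% of the 22447 genes for which it holds one. These are Gzma (log2 fold change -5.00, adjusted p-value 5.72e-21), Serpinb6b (-1.86, 0.000885), Serpinb9 (-1.75, 0.00204), Prf1 (-1.71, 0.031) and Gzmk (3.14, 0.0376), the genes that also passed the binomial test. Such p-values need an assumed spread between samples, since 1 library per genotype gives none. When the biological coefficient of variation (BCV) was taken as 0.4, edgeR's exact test left Gzma alone of the 10 past both thresholds (adjusted p-value 0.00024), beside 0.449% of all genes as lower and 0.495% as higher.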

How the data were processed

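Per the labels' protocols, RNA from a Qiagen column kit (1 µg) entered an NEBNext Ultra library preparation. Per the submitters' processing notes, the tools were HISAT2 2.0.5, StringTie 1.3.3b, featureCounts 1.5.0-p3 and DESeq2 1.16.1 with build mm10; their roles, the sequencing layout and the use of strand are not given in the sources used here. Each gene has raw read counts deposited by the authors, FPKM values (scaled by length and library size), a scaled count signal (not used), and a log2 fold change with p-values. These deposited p-values were within 1% of those of edgeR's exact test with an assumed BCV of 0.2 for 99.9% of 22447 genes. All coordinates are as deposited, and for the 10 genes they equal those of GENCODE M21 (GRCm38).

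TMM factors (WT 0.964, Exon2KO 1.04) were computed with edgeR 4.0.16 under R 4.3.3. A quasi-likelihood test could not be fitted to single libraries. Genes whose reads over both libraries reached 10 were therefore compared by a 2-sided exact binomial test with Benjamini-Hochberg adjustment over all genes tested. They were called at an adjusted p-value below 0.05 and 2-fold. The test was first run on simulated data that held counting error only. That run could not show how spread between samples affects the calls. Log2 ratios carry a prior count of 2, and folds and 95% Clopper-Pearson intervals do not. Where a library had 0 reads, the fold is a bound against 3 reads. CPM is counts over the scaled library size. Levels of different genes were compared by FPKM, and shares of reads, which also depend on gene length, are named as such.

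All 10 genes, the genes of 6 lists, the markers, the genes near granzymes and the 5 genes nearest to Gzma could be named. The members and lists were chosen with earlier results of these data known. Alternatives were other scalings (DESeq2 1.42.0 size factors, total counts, upper quartile), prior counts, read filters, fold thresholds and assumed BCVs. Promoter sequences are RefSeq's, and 10 of 10 genes matched by symbol.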

Additional observations from a re-analysis of the deposited data

How the results depend on the processing

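The scalings and prior counts tried changed no call among the 10 genes and 1 direction: with total counts Srgn moved from -0.05 to 0.0581, as that scaling shifts the median of all tested genes by 0.105. With total counts, 1536 genes passed as higher and 1017 as lower over all, beside 1270 and 1183 with TMM. Requiring 50 reads left 0 granule genes higher, since Gzmk was no longer tested, and 1 higher and 0 lower near granzymes, with 649 higher and 685 lower among all genes. Other scalings and a prior count of 0.5 gave 5 related genes higher in place of 4, by adding Lyst. A 1.5-fold threshold gave 1870 genes higher and 1891 lower over all and 7 higher and 8 lower in the related lists. A 4-fold threshold left 499 higher and 408 lower over all, 1 granule gene lower (Gzma), and 1 higher and 0 lower in the related lists. An assumed BCV of 0.2 left 579 higher and 536 lower over all and 1 higher near granzymes, kept the calls of the 10 genes, and left 3 higher and 2 lower in the related lists, where Serpinb1a and Ap3b1 lost their calls. An assumed BCV of 0.4 left 86 and 78 over all, 0 granule genes higher and 1 lower, 0 and 0 in the related lists, and 1 and 0 near granzymes. As shares of reads, Gzmb made up 89.1% of granzymes in WT and 99.4% in Exon2KO. Depth limits Gzmk, Gzmm and Prf1 most. No paired analysis was possible because there is 1 library per genotype, and for the same reason no library could be left out.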
